A study of Mus musculus with 12 samples.

Results

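Guanylate-binding proteins (GBPs) and immunity-related GTPases (IRGs) are interferon-inducible GTP-binding proteins, and 10 of their mouse genes were followed here across 12 libraries of cultured adult mouse astrocytes. The genes were taken by name from a deposited table of 54532 genes: Gbp2, Gbp3, Gbp5, Gbp6, Gbp7 and Gbp9 of the GBP family, and Iigp1, Irgm1, Irgm2 and Igtp of the IRG family. The study holds 3 experiments on astrocytes grown from cortex and hippocampus of C57BL/6 mice, each with 2 control and 2 test libraries and its own controls. In the first, at an age of 4 months, cells described as an Ogt knockout were set against cells described as its control. Ogt encodes the enzyme that attaches O-linked N-acetylglucosamine to proteins. Both groups carry the same genotype label, Glast-CreERT2::Ogtfloxp/Y. In it a tamoxifen-dependent Cre recombinase is driven by an astrocyte promoter and the Ogt allele is flanked by loxP sites. Only the descriptions and the sample titles tell the groups apart, and the titles call the controls WT, unlike that label. No tamoxifen dose is stated. In the second, astrocytes of the 5X APP Alzheimer's disease (AD) model were set against wild-type astrocytes. Their age is 6 months in the sample labels and 5 months in the series text. In the third, wild-type astrocytes at 2 months were treated with A-beta 1-42 (Aβ, 20 µM) for 72 h and set against controls, although 1 sample's label says 73 h. Nothing in the labels tells whether the 2 libraries of a group are from different mice or cultures. The p-values below therefore reflect only how far these libraries lie apart, which may be technical.

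GBPs are large GTPases that assemble on the membranes of vacuoles that hold pathogens, on some bacteria and around damaged membranes, and several of them are anchored there by a lipid added to their C-terminal end. IRGs are smaller GTPases of the same response: effector IRGs such as Iigp1 load onto a vacuole and help to break it, whereas the regulatory IRGs Irgm1, Irgm2 and Igtp (also called Irgm3) sit on the cell's own membranes and keep the effectors inactive there. Both families are switched on mainly by interferon-gamma, through GAS elements in their promoters and through IRF1, and to a varying degree by type I interferons, through the interferon-stimulated response element (ISRE), which STAT2 and IRF9 act on. Astrocytes are known to induce these genes when they meet interferon.

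The genes lie in clusters, given here on mm10. Gbp5 (ENSMUSG00000105504, chr3:142493978-142522344), Gbp7 (ENSMUSG00000040253, chr3:142530342-142550149), Gbp3 (ENSMUSG00000028268, chr3:142560026-142573209) and Gbp2 (ENSMUSG00000028270, chr3:142620602-142638008) follow one another on the plus strand of chromosome 3. Gbp9 (ENSMUSG00000029298, chr5:105077630-105139539) and Gbp6 (ENSMUSG00000104713, chr5:105270702-105293698) lie on the minus strand of chromosome 5. Igtp (ENSMUSG00000078853, chr11:58199556-58207591) and Irgm2 (ENSMUSG00000069874, chr11:58199618-58222782) share the plus strand of chromosome 11, with Irgm1 (ENSMUSG00000046879, chr11:48861968-48871683) on the minus strand of the same chromosome. Iigp1 (ENSMUSG00000054072) lies outside these clusters.

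The promoters of 7 members are in the RefSeq table for GRCm38.p6, as windows of 300 bases that run from 250 bases before the start site to 50 after it. Those 7 are the members whose stretch upstream of the start is shown, since the members rise together and the interferon motifs sit in it. Capitals mark matches to the ISRE core GAAANNGAAA (TTTCNNTTTC on the other strand) or to the GAS core TTCNNNGAA, which reads the same on both strands. Each sequence is written 5′ to 3′ on the gene's strand and ends at the last base before the RefSeq start. The coordinates are chr3:142496754-142496933 for Gbp5, chr3:142530226-142530335 for Gbp7, chr3:142559934-142560043 for Gbp3, chr3:142620553-142620662 for Gbp2, chr11:48871421-48871530 for Irgm1 (minus strand), chr11:58199446-58199555 for Igtp and chr11:58214867-58214976 for Irgm2.
Gbp2: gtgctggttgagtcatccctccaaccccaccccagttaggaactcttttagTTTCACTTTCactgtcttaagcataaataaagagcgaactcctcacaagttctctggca
Gbp3: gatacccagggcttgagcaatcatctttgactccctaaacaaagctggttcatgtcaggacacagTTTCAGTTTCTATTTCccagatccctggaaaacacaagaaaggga
Gbp5: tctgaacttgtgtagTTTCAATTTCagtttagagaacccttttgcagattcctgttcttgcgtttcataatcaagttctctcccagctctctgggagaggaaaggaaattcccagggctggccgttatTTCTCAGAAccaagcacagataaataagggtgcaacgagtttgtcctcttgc
Gbp7: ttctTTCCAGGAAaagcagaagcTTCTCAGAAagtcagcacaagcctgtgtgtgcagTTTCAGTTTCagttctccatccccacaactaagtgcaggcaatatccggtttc
Irgm1: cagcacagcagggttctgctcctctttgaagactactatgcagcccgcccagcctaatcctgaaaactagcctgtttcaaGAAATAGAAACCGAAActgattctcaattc
Igtp: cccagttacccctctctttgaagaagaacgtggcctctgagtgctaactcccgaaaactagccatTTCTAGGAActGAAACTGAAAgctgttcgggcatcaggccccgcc
Irgm2: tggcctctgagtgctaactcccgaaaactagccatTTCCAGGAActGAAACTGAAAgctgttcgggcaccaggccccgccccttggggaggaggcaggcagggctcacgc

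An ISRE core was found in 7 of the 7 member genes in the table, and in 7 of their 8 windows, since Gbp3 has a second start whose window held none. Among all 32851 promoter windows 3.44% hold one, and among all 27025 genes 3.99% do. In Gbp3 and Irgm1 the ISRE core occurs as a pair of overlapping matches. A GAS core was found in Gbp5, Gbp7, Igtp and Irgm2, that is in 4 of 7 genes, against 8.30% of all windows and 9.55% of all genes. A further GAS core of Gbp5 begins 245 bases before its start, outside the stretch shown. Igtp and Irgm2, the neighbours on chromosome 11, carry a GAS core, 2 spacer bases and an ISRE core in the same order, and 78 of 80 aligned bases of the stretches shown are identical. In the list of other genes induced by type I interferon, 12 of the 23 with a promoter in the table held the ISRE core, and in the list of other interferon-gamma targets 2 of 15 did. Of the marker genes used further on, 1 of 12 for astrocytes and 2 of 13 for microglia held it. The GAS core was in 7 of 23 type I genes and 4 of 15 interferon-gamma targets. It was also in 4 of 12 astrocyte markers and 1 of 13 microglia markers, so it was not particular to the interferon lists. A match is a match of letters and not a measured binding site.

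**Figure D1:**
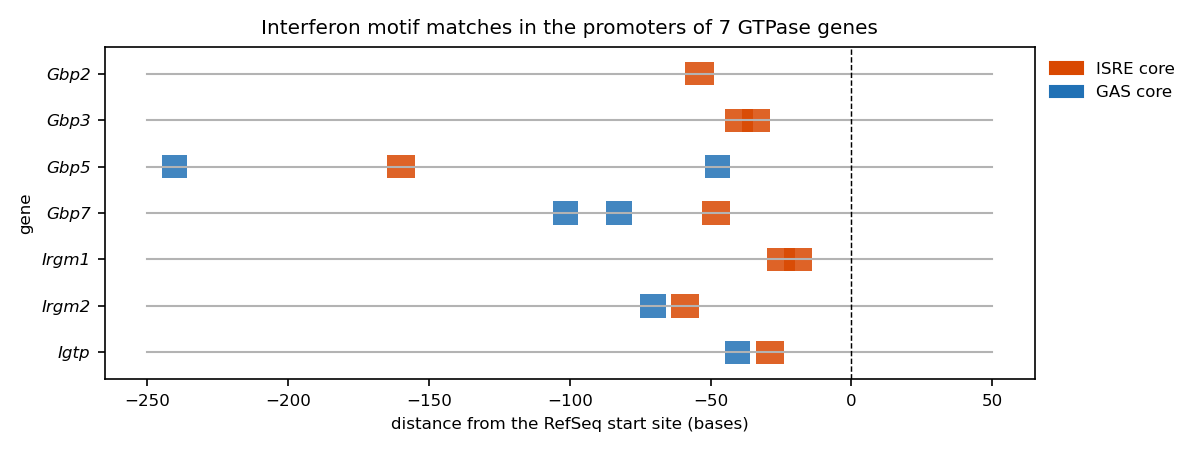
Positions of ISRE core matches (orange) and GAS core matches (blue) in the promoter windows of the 7 members found in RefSeq, as bases from the start site (dashed line). Overlapping matches are drawn darker. Each gene shows at least 1 ISRE core within 165 bases before its start, and 4 genes show a GAS core further upstream or between the ISRE core and the start.

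Levels are given as FPKM, fragment counts scaled to gene length and library size, which can be set against each other between genes because they are per length. The libraries held 16418852 to 18705309 recovered reads. Calls come from a limma fit of log2(FPKM + 1) over all 12 libraries and the 14014 genes that reached 1 FPKM in 2 or more libraries, with p-values adjusted by Benjamini-Hochberg and called under 0.05. All 10 members passed that filter, but Gbp5, Gbp6, Gbp7 and Gbp9 did so only with the AD model and Aβ-treated libraries, where they were high. With no filter on low values all 10 were still called higher in AD and under Aβ. Ogt itself read 20.8 and 24.7 FPKM in the knockout controls and 11 and 12 in the knockout libraries, so its RNA was lower but still measured there. The astrocyte marker Gfap and its 14 fellow markers were each detected in at least 1 library, and so were markers of other cells, whose sums stand beside the member levels further on. In bulk RNA of such cultures fewer cells of a type and less RNA per cell cannot be told apart.

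In the 3 control groups the members fell into a measurable set and a low set. Irgm1, Gbp2, Irgm2, Igtp and, in 2 of the 3 groups, Gbp3 stood above 1 FPKM in both control libraries, while Gbp5, Gbp6 and Gbp9 were below 1 FPKM in all 6. The members at 1 FPKM or more in both libraries numbered 5 of 10 in the knockout control, 5 in the Ogt knockout, 5 in the AD control and 4 in the Aβ control, against 10 in the AD model and 10 in the Aβ-treated cells. Irgm1 was the steadiest, its highest control mean being 1.52 times its lowest. For Iigp1 the same ratio was 70.2, because the Aβ controls held 2 reads of it in one library and 0 in the other. Summed over the 10 members, the level was 56.0 and 42.4 FPKM in the knockout controls, 53.1 and 63.6 in the Ogt knockout, 42.3 and 39.4 in the AD controls, 357 and 531 in the AD model, 32.6 and 27.3 in the Aβ controls and 307 and 283 in the Aβ-treated cells. Both test groups of the AD and Aβ experiments thus lay far above the other 4 groups, which overlapped one another in part.

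**Figure D2:**
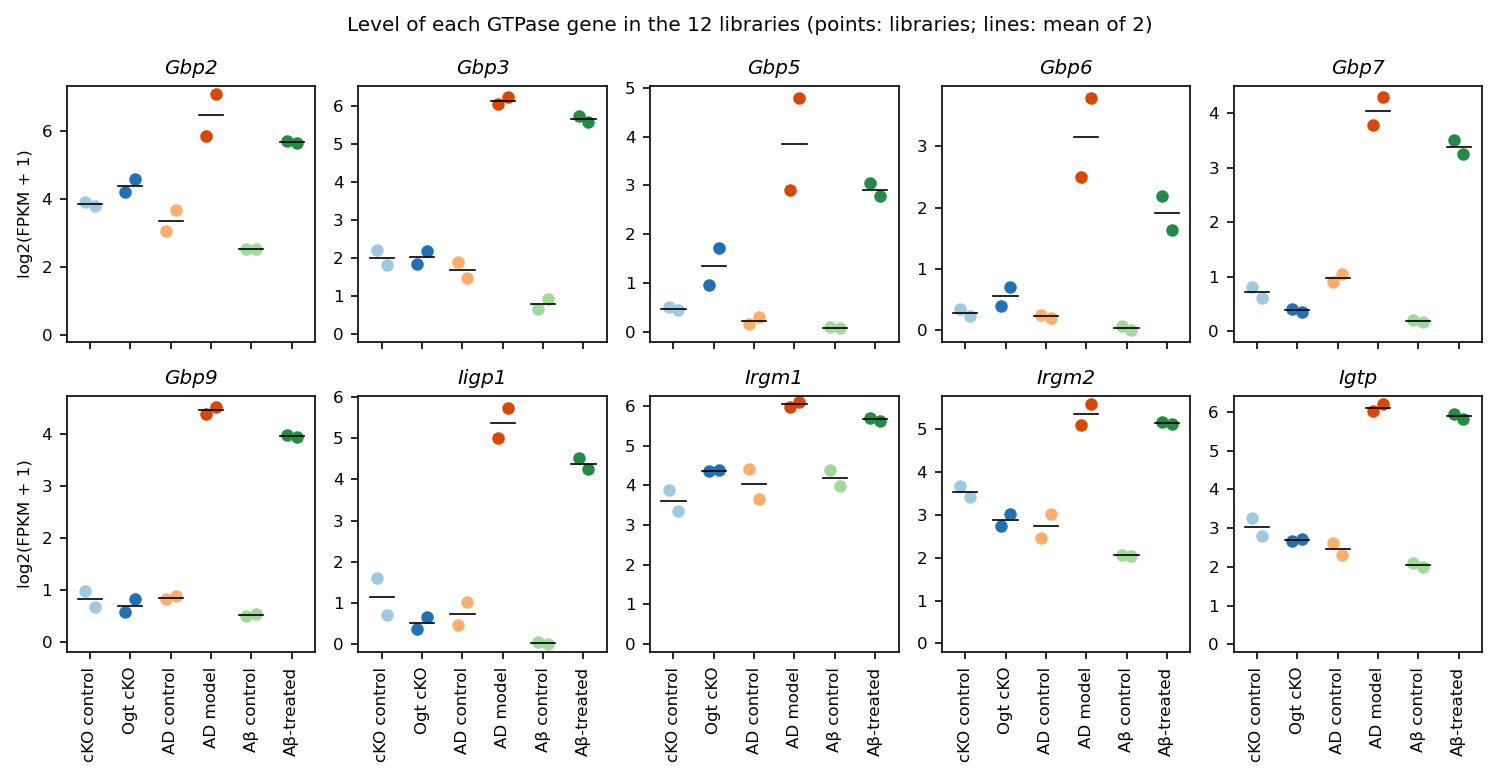
Level of each of the 10 members as log2(FPKM + 1), 1 panel a gene with its own vertical scale, with points for the 12 libraries and lines for the mean of the 2 libraries of each of the 6 groups. In every panel the AD model and Aβ-treated points are the highest, and for Gbp2 the AD model libraries (56.8 and 135 FPKM) stand further apart than the Aβ-treated ones (50.4 and 48.4 FPKM).

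In astrocytes of the AD model all 10 members were higher than in wild-type astrocytes, from 4.06-fold for Irgm1 to 93.5-fold for Gbp5 in mean FPKM. Of all genes tested 17.1% were called in this comparison, and 9.8% were called higher. The median change of the members was 3.36 on the log2(FPKM + 1) scale, beside -0.02 over all genes. For each member both AD model libraries lay above both controls, which held for 21.8% of all genes tested.

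Among the GBPs on chromosome 3, Gbp2, a prenylated GBP known as a marker of reactive astrocytes, read 7.32 and 11.6 FPKM in the AD controls and 56.8 and 135 in the AD model. The AD model libraries differ 2.37-fold from each other, and the lower of them is still above both controls. The fitted change was 3.11 (SE 0.35, adjusted p = 5.7e-04). Gbp3 read 2.74 and 1.81 FPKM in the controls and 65.1 and 75.3 in the model, with a change of 4.45 (SE 0.20, adjusted p = 5.3e-06). That is the largest of the GBPs on the log2(FPKM + 1) scale, whereas in mean FPKM Gbp5 (93.5-fold) and Gbp6 (53.6-fold) exceeded its 30.8-fold. Gbp5, which is tied to inflammasome assembly, went from 0.119 and 0.238 to 6.48 and 26.8 FPKM. Its AD model libraries were the most unlike of all members, 4.14-fold apart, and its change of 3.62 carried the largest standard error (0.50, adjusted p = 0.0016). Gbp7 read 0.863 and 1.06 FPKM in the controls and 12.8 and 18.7 in the model (log2 change 3.07, SE 0.18, adjusted p = 1.4e-05). In all 4 genes the model and control libraries did not overlap.

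The chromosome 5 pair behaved alike in direction. Gbp9 rose from 0.761 and 0.836 FPKM to 19.8 and 22, close replicates that give a log2 change of 3.61 (SE 0.15, adjusted p = 4.2e-06). Gbp6 rose from 0.183 and 0.145 to 4.67 and 12.9 FPKM (log2 change 2.93, SE 0.36, adjusted p = 8.8e-04). The values of Gbp6 are uncertain, because 70.7% of the distinct 50-base stretches of its transcripts also occur in other genes, mostly in the overlapping gene Gm43302 and in Gbp10. The same share was 12.7% or less in the other 9 members.

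Of the IRGs, Iigp1, the effector that loads onto vacuoles, changed most of any member on the log2(FPKM + 1) scale, though its 60.8-fold rise in mean FPKM was below that of Gbp5: 0.369 and 1.01 FPKM in the AD controls became 31.3 and 52.5 in the model, a change of 4.65 (SE 0.34, adjusted p = 4.1e-05). The regulatory IRGs started higher. Igtp read 5.09 and 3.95 FPKM in the controls and 64.5 and 72.5 in the model (log2 change 3.66, SE 0.17, adjusted p = 5.3e-06). Irgm2 read 4.46 and 7.10 against 33.4 and 47.3 FPKM (2.61, SE 0.22, adjusted p = 1.1e-04). Irgm1, which had the highest control level of the 3, read 20.4 and 11.7 against 62.1 and 68.2 FPKM and had the smallest change (2.01, SE 0.26, adjusted p = 0.0011). Igtp and Irgm2 have overlapping gene models on one strand, with 162 exon bases in common, so a small part of their reads could have been assigned to either.

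The second AD model library was the higher one for all 10 members. AD replicates differed more than those of the other experiments over the whole table: the median absolute difference between the 2 libraries of a group was 0.29 in both AD groups on the log2(FPKM + 1) scale, against 0.10 to 0.16 in the other 4 groups. When the AD comparison was fitted on its own 4 libraries, without sharing the spread of the other experiments, 6 of 10 members were called and 278 genes in all. Gbp2 (adjusted p = 0.066), Gbp5 (0.086), Gbp6 (0.069) and Irgm1 (0.066) then missed the threshold with the same change.

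Treatment of wild-type astrocytes with Aβ was likewise accompanied by higher levels of all 10 members, from 2.86-fold for Irgm1 to 99.6-fold for Gbp5 in mean FPKM among the 8 members with more than 4 control reads in all. For the other two, Gbp6 and Iigp1, the controls held so few reads that the fold is uncertain. In this comparison 35.9% of all genes tested were called, and 20.8% were called higher. The median member change was 3.16 on the log2(FPKM + 1) scale, beside -0.04 over all genes. The 2 treated libraries lay above both controls for each of the 10 members, as they did for 36.6% of all genes.

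Gbp2 rose from 4.75 and 4.78 FPKM to 50.4 and 48.4, with 4 close replicates (log2 change 3.13, SE 0.35, adjusted p = 3.1e-04). Gbp3, at 0.580 and 0.917 FPKM in the controls, reached 52.6 and 47.4, and its change of 4.87 (SE 0.20, adjusted p = 3.5e-06) was the largest of the members on the log2(FPKM + 1) scale. In mean FPKM it rose 66.8-fold, less than Iigp1, Gbp6, Gbp5 and Gbp7, whose control levels were lower. Gbp3 thus came from a low level to about that of Gbp2. Gbp7 rose from 0.147 and 0.123 to 10.4 and 8.56 FPKM (3.20, SE 0.18, adjusted p = 1.1e-05). Gbp5 rose from 0.0713 and 0.0607 to 7.29 and 5.86 FPKM (2.82, SE 0.50, adjusted p = 0.0028). On chromosome 5, Gbp9 moved from 0.400 and 0.445 to 14.8 and 14.4 FPKM (3.46, SE 0.15, adjusted p = 3.7e-06). Gbp6 read 0.0397 and 0 FPKM in the controls, 4 reads in all, and 3.55 and 2.09 in the treated cells (1.88, SE 0.36, adjusted p = 0.0043). Its read ratio of 143 has a 95% counting interval of 55.5 to 526, which covers counting error only.

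The IRGs ranged from 2.86-fold for Irgm1 to Iigp1, whose controls were nearly empty. Iigp1 read 0.0379 FPKM and 0 in the Aβ controls, 2 reads in all, and 21.9 and 18.0 FPKM after treatment (log2 change 4.36, SE 0.34, adjusted p = 4.4e-05). The read ratio of 1065 rests on those 2 control reads, and its counting interval runs from 294 to 8798. Igtp rose from 3.28 and 2.99 to 60.3 and 56.0 FPKM (3.84, SE 0.17, adjusted p = 4.1e-06), which made it the highest member in the treated cells. Irgm2 rose from 3.21 and 3.09 to 35.1 and 33.7 FPKM (3.09, SE 0.22, adjusted p = 3.2e-05). Irgm1 rose from 20.1 and 14.8 to 51.1 and 48.7 FPKM and again changed least (1.48, SE 0.26, adjusted p = 0.0027). In the treated cells Igtp, Irgm1, Gbp3 and Gbp2 had means of 58.1, 49.9, 50.01 and 49.4 FPKM, and the library values of the last 3 overlapped.

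**Figure D3:**
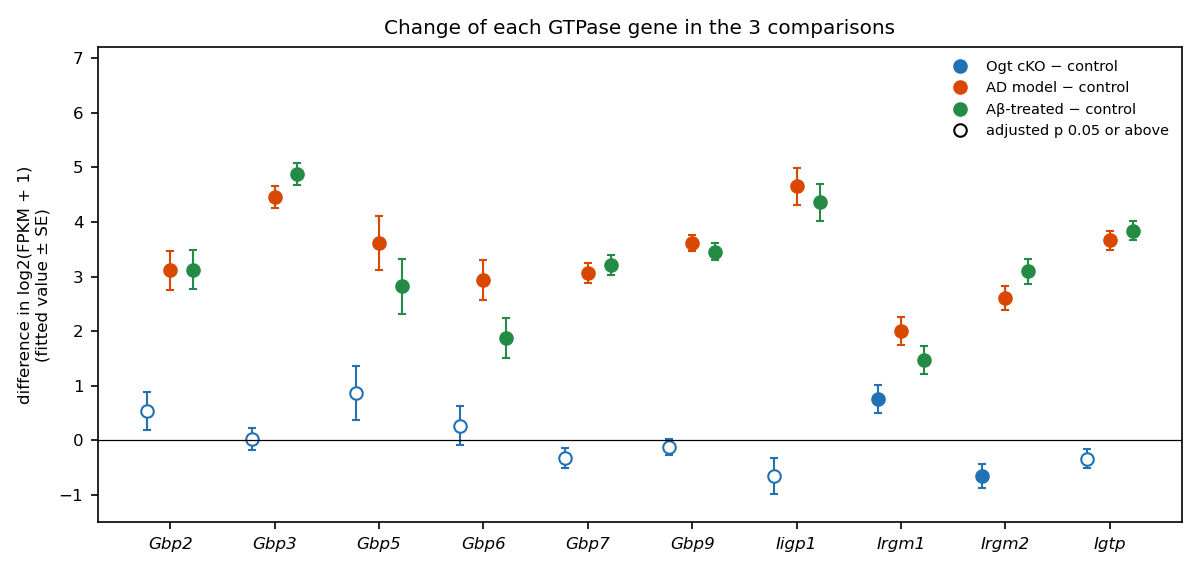
Change of each member on the log2(FPKM + 1) scale in the 3 comparisons, with points at the fitted change, bars for ± 1 SE and open points where the adjusted p is 0.05 or above. All 10 members lie above 0 in the AD and Aβ comparisons, from 1.48 for Irgm1 under Aβ to 4.87 for Gbp3 under Aβ, and between -0.65 and 0.87 in the Ogt knockout.

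The AD and Aβ effects, which have separate controls, were set against each other in the same fit. None of the 10 members differed between them by limma at an adjusted p under 0.05, and 0 had an unadjusted p under 0.05. Among all genes 6.14% were called in that difference. On the log2(FPKM + 1) scale the AD change minus the Aβ change ranged from -0.48 for Irgm2 (95% interval -1.18 to 0.23, adjusted p = 0.39) to 1.06 for Gbp6 (-0.10 to 2.21, adjusted p = 0.25). For Gbp9, the most precisely measured, it was 0.15 (-0.33 to 0.62), and for Gbp5, the least, 0.79 (-0.81 to 2.39). For genes with few control reads this difference depended on the scale, for some in sign and for Gbp7 in size only. With limma voom on recovered reads, where no 1 FPKM is added, it was -3.91 for Iigp1 (0.29 on the main scale), -2.08 for Gbp7 (-0.13), -1.99 for Gbp6 (1.06) and -0.31 for Gbp5 (0.79), and no member was called there either. Gbp9 also changed sign there, from 0.15 on the main scale to -0.40. The ratios of mean FPKM were larger under Aβ than in AD for every member except Irgm1 (2.86 against 4.06). They were 142 against 53.6 for Gbp6 and 99.6 against 93.5 for Gbp5, while those of Gbp2 were close (10.4 against 10.1). Without the first AD model library, the differences of Gbp5 (1.74, adjusted p = 0.028) and Gbp6 (1.70, adjusted p = 0.020) passed the threshold on the log2(FPKM + 1) scale, in the direction that limma voom on all libraries reversed.

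In the Ogt knockout the members showed no shared direction. 2 of 10 were called, Irgm1 higher and Irgm2 lower, where 42.3% of all genes tested were called, a share that lies above that of the members. Of all genes 22.6% were called higher and 19.8% lower. The median member change was -0.05, beside -0.00 over all genes. Irgm1 read 13.7 and 9.26 FPKM in the controls and 19.7 and 19.8 in the knockout (log2 change 0.76, SE 0.26, adjusted p = 0.043). Irgm2 read 11.7 and 9.62 in the controls and 5.74 and 7.13 in the knockout (-0.65, SE 0.22, adjusted p = 0.042). Both calls lie close to the threshold and depended on single libraries. Irgm1 lost its call without the second control (adjusted p = 0.26), the first knockout library (0.14) or the second (0.14), and Irgm2 without the first control (0.19), the second control (0.090), the first knockout library (0.20) or the second (0.077). Libraries of the Aβ experiment, which enter through the shared spread, mattered too: without either Aβ-treated library both calls were lost (adjusted p = 0.062 for Irgm1 and 0.061 for Irgm2), and without either Aβ control Irgm2 was (0.059). Scaling each library to its total of recovered reads moved the median of all genes by -0.19 on the log2 scale, ended the call of Irgm1 (0.53, adjusted p = 0.083) and brought Igtp under the threshold (-0.54, adjusted p = 0.023).

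The other 8 members were not called in the knockout. Gbp2 read 14.0 and 12.9 FPKM in the controls and 17.3 and 22.9 in the knockout (0.54, SE 0.35, adjusted p = 0.23). Gbp5 read 0.424 and 0.358 against 0.958 and 2.28 FPKM (0.87, SE 0.50, adjusted p = 0.18). Both genes had each knockout library above each control. Fitted on the 4 libraries of this experiment alone, 4 members were called, with Gbp2 (adjusted p = 0.033) and Gbp5 (0.046) added to Irgm1 and Irgm2. Iigp1 read 2.04 and 0.621 FPKM against 0.285 and 0.559 (-0.65, SE 0.34, adjusted p = 0.14), and Igtp 8.58 and 5.95 against 5.34 and 5.61 FPKM (-0.33, SE 0.17, adjusted p = 0.14). Gbp7 read 0.747 and 0.527 against 0.328 and 0.278 FPKM (-0.33, SE 0.18, adjusted p = 0.17). Gbp6, at 0.258 and 0.163 against 0.310 and 0.628 FPKM, had a change of 0.27 (SE 0.36, adjusted p = 0.56). Gbp3 (3.61 and 2.51 against 2.63 and 3.59 FPKM) and Gbp9 (0.975 and 0.581 against 0.479 and 0.771 FPKM) were the 2 members whose groups overlapped. For 8 of 10 members the groups did not overlap, where 83.9% of all genes did not.

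The makeup of the family changed along with its sum. Irgm1 made up 61.7% and 54.5% of the summed FPKM of the 10 members in the Aβ controls and 16.6% and 17.2% in the Aβ-treated cells. In the AD experiment its share was 48.2% and 29.6% in the controls and 17.4% and 12.9% in the model. Gbp3 moved the other way. Its share, averaged over the 2 libraries of a group, was 2.57% in the Aβ controls and 16.9% in the treated cells. In AD it was 5.53% in the controls and 16.2% in the model. All IRGs together held 81.6% and 76.8% of the sum in the Aβ controls and 54.8% and 55.2% after treatment, so that GBPs made up a larger part of the induced set than of the basal one. In the Ogt knockout Irgm1 held 37.1% and 31.2% of the sum, above the 24.5% and 21.8% of its controls. These shares are descriptions of 2 libraries a group and were not tested.

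**Figure D4:**
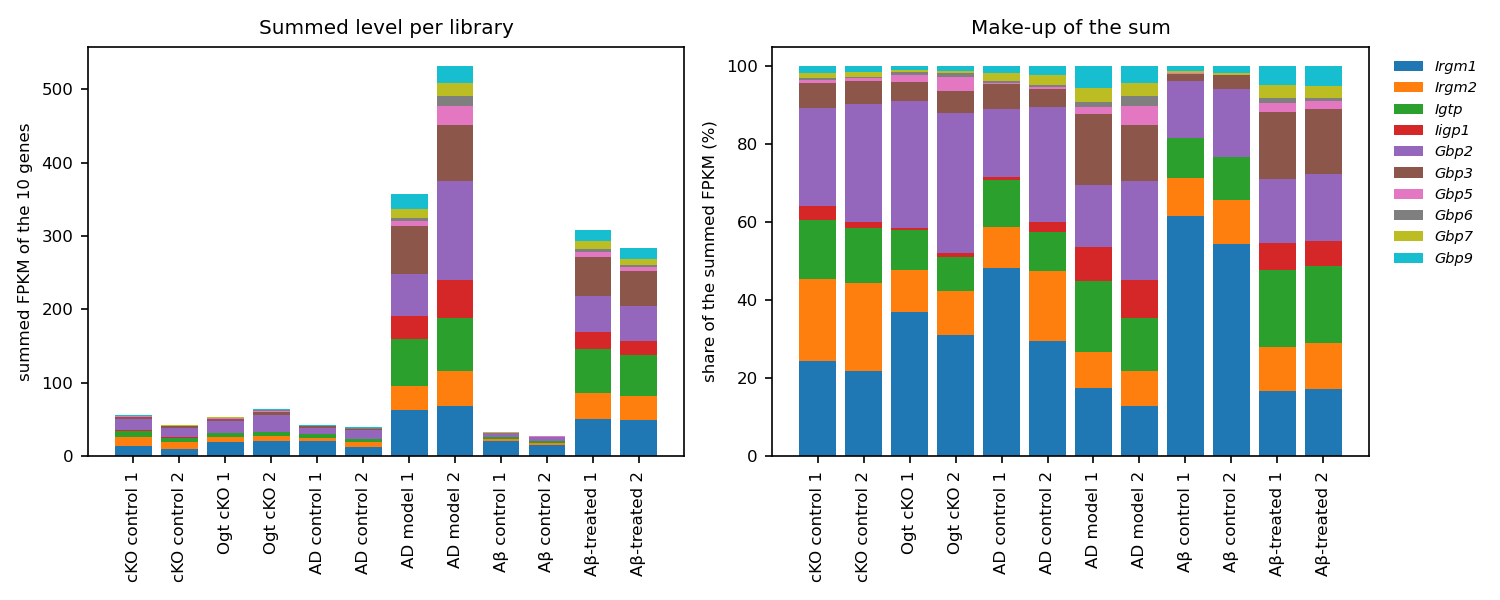
Summed FPKM of the 10 members (left) and the percent share of each member in that sum (right), as 1 stacked bar for each of the 12 libraries. The sum reaches 283 to 531 FPKM in the AD model and Aβ-treated libraries and at most 63.6 in the others, and Irgm1 takes 54.5% to 61.7% of the bar in the Aβ controls and 12.9% to 17.4% in the AD model and Aβ-treated libraries.

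Part of the other GBP and IRG family genes in the table rose with the 10. Of 15 other family genes tested, 9 were called higher and 0 lower in the AD model, 10 higher and 1 lower under Aβ, and 0 higher and 3 lower in the Ogt knockout. Of all genes tested, 9.8% were called higher in AD and 20.8% under Aβ. In the knockout 22.6% were called higher and 19.8% lower, so the lower calls of the family there were near the share of all genes. Gm4951, a close relative of Iigp1, had mean levels of 0.424 FPKM in the AD controls and 12.4 in the AD model (log2 change 3.23, adjusted p = 1.4e-05), and 0.0435 and 5.53 in the Aβ groups (2.64, adjusted p = 3.5e-05). Gbp4 had 0.0365 and 4.97 FPKM (2.50, adjusted p = 3.75e-05) and 0.0192 and 2.92 (1.94, adjusted p = 1.1e-04). The IRG Gm12250 (also called Irgb10) went from 0.299 to 11.5 FPKM in AD and from 0.0916 to 9.36 under Aβ. The T-cell-specific GTPases Tgtp1 and Tgtp2, IRG effectors that are near copies of each other and so are uncertain one by one, went from 0.393 to 5.73 and from 0.946 to 12 FPKM in AD, and from 0.0823 to 7.06 and from 0.389 to 12.4 under Aβ. Gm5431 rose from 0.195 to 3.90 FPKM in AD (adjusted p = 5.3e-04) and from 0.278 to 3.43 under Aβ (5.3e-04), and it was lower in the Ogt knockout (1.39 against 0.114 FPKM, adjusted p = 0.0069). The very large inducible GTPases Gvin1 and Gm4070 rose from 0.0757 to 1.78 and from 0.0998 to 2.30 FPKM in AD, and from 0.0423 to 2.67 and from 0.107 to 3.98 under Aβ. The other gene called higher in both, Gbp8, stayed under 1 FPKM in the mean of every group and was lower in the Ogt knockout (0.627 against 0.128 FPKM, adjusted p = 0.0498). The third gene lower there was the atlastin Atl1 (1.25 against 0.638 FPKM, adjusted p = 0.034). Gbp8, Stat3, Irf2 and the further genes below that make up counts of 5 or fewer were named after their values were seen.

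The remaining family genes did not share this rise in AD. Irgq, a quasi-GTPase of the IRG family, fell under Aβ from 15.4 to 9.67 FPKM (-0.62, adjusted p = 0.010) and had 14.2 and 9.95 FPKM in the AD groups (-0.49, adjusted p = 0.051). The atlastins, which shape the endoplasmic reticulum and share the GTPase fold of GBPs, were not called in AD or under Aβ: Atl1 had 1.21 and 1.07 FPKM in the AD groups, Atl2 4.33 and 4.18, and Atl3 22.4 and 16.0. The 2 genes 9930111J21Rik1 and 9930111J21Rik2 had 0.763 and 0.905, and 2.36 and 2.11 FPKM in the AD groups, and the latter was called higher under Aβ (0.622 against 2.84 FPKM, adjusted p = 0.017). Gm4841, at 1.25 FPKM in the mean of the AD model, did not pass the filter and was not tested.

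Among the ligands that induce the family, interferon-gamma RNA (Ifng) had 0 reads in all 12 libraries, where 3 reads would be 0.112 to 0.147 FPKM. Of 24 ligand genes, including the interleukins that induce interferon-gamma, 12 were at 0 in every library and 3 were tested, with 1 called higher and 0 lower in AD, 1 higher and 0 lower under Aβ, and 1 higher and 1 lower in the Ogt knockout. Interferon-beta (Ifnb1) was called in AD: it had 9 and 15 reads in the AD model libraries and 0 in both AD controls (log2 change 0.91, adjusted p = 0.040). It reached the 1 FPKM of the filter only in AD model and Aβ-treated libraries, so it was tested only because it was high there. Under Aβ it had 13 and 2 reads against 0 and 0 (0.61, adjusted p = 0.091), and in the Ogt knockout 0 and 3 against 0 and 0 (0.16, adjusted p = 0.63). Il18 was higher under Aβ (1.67 against 4.97 FPKM, adjusted p = 0.036) and lower in the Ogt knockout (5.58 against 2.10, adjusted p = 0.037). Il12b was higher in the Ogt knockout (0 and 0 FPKM against 3.17 and 10.3, adjusted p = 0.0039).

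The receptors and signalling genes that lead to the GAS and ISRE elements moved in part. Of 21, 10 were called higher and 0 lower in AD, 15 higher and 0 lower under Aβ, and 2 higher and 5 lower in the Ogt knockout. Over all genes tested, 9.8% were called higher in AD and 20.8% under Aβ, and 42.3% were called in either direction in the knockout, above the share of this list there. The interferon-gamma receptor chains were not called in either: Ifngr1 had 21.5 and 24.9 FPKM in the AD groups (adjusted p = 0.46) and 20.8 and 27.4 in the Aβ groups (0.085), and Ifngr2 had 29.1 and 31.9 (0.73) and 26.5 and 31.0 (0.37). In the Ogt knockout Ifngr1 was lower (38.0 against 27.0 FPKM, adjusted p = 0.035) and Ifngr2 higher (26.0 against 39.4, adjusted p = 0.033). The kinase gene Jak2 rose under Aβ from 4.06 to 14.7 FPKM (1.66, adjusted p = 5.3e-04) and had 10.2 and 13.5 in the AD groups (0.37, adjusted p = 0.29).

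Several transcription factors of the list rose in both comparisons. Stat2 rose from a mean of 4.86 to 42.4 FPKM in AD and from 3.92 to 33.2 under Aβ, and Irf9, its partner at the ISRE, from 5.93 to 19.5 and from 5.11 to 17.7. Irf1 rose less, from 8.28 to 16.3 FPKM in AD (0.91, adjusted p = 0.027) and from 4.78 to 14.8 under Aβ (1.45, adjusted p = 0.0017). Stat3 was called in neither (-0.05 in AD, adjusted p = 0.88, and -0.14 under Aβ, adjusted p = 0.50), and Irf2 was called under Aβ (1.07, adjusted p = 3.6e-04) but not in AD (0.39, adjusted p = 0.062). Usp18, a feedback inhibitor of type I interferon signalling, had the largest change of the list, from 1.53 to 83.2 FPKM in AD and from 1.52 to 74.8 under Aβ. In the Ogt knockout Stat2 was lower (9.09 against 4.94 in the mean, adjusted p = 0.023) and Usp18 higher (1.72 against 3.66, adjusted p = 0.026). Irf2, Irf8 and Pias1 were the other signalling genes lower there, and the interferon regulatory factor Irf8 rose in AD from 2.32 to 11 FPKM (adjusted p = 6.4e-04).

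Most other targets of the same pathways moved in AD and Aβ as the members did. Of 30 genes induced by type I interferon, 30 were called higher in AD and 30 under Aβ, with 4 higher (Ifit3, Ifit3b, Xaf1 and Zbp1) and 4 lower (Dhx58, Eif2ak2, Trim30a and Adar) in the Ogt knockout. Ifi44 (0.387 to 27.3 FPKM), Oasl1 (0.136 to 22.2), Zbp1 (0.721 to 41.5) and Oas2 (0.0876 to 14.1) had the smallest p in AD. Of 19 other interferon-gamma targets tested, 17 were called higher in AD and 16 under Aβ, with none lower in either, and 7 higher and 2 lower (Psmb9 and Fcgr1) in the Ogt knockout. H2-Eb1 (-0.02 in AD and 0.10 under Aβ) and Wars (0.06 and -0.13) were called in neither, and H2-Ab1 was not called under Aβ (0.49). H2-Ab1 and H2-Eb1 were among the 7 higher in the Ogt knockout. These exceptions were named after their values were seen. Nlrc5, the activator of MHC class I genes, rose from 0.209 to 5.73 FPKM in AD, Cd274 (PD-L1) from 1.12 to 39.0, the chemokine Cxcl10 from 1.76 to 129, and the peptide transporter Tap1 from 6.67 to 34.8. Cxcl10 was also higher in the Ogt knockout (2.05 against 46.1 FPKM, adjusted p = 6.7e-04), where Tap1 (8.81 against 8.78) was not called. The median change was 3.83 for the type I list and 2.48 for the interferon-gamma list in AD, and 4.16 and 2.47 under Aβ, beside the members' 3.36 and 3.16.

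**Figure D5:**
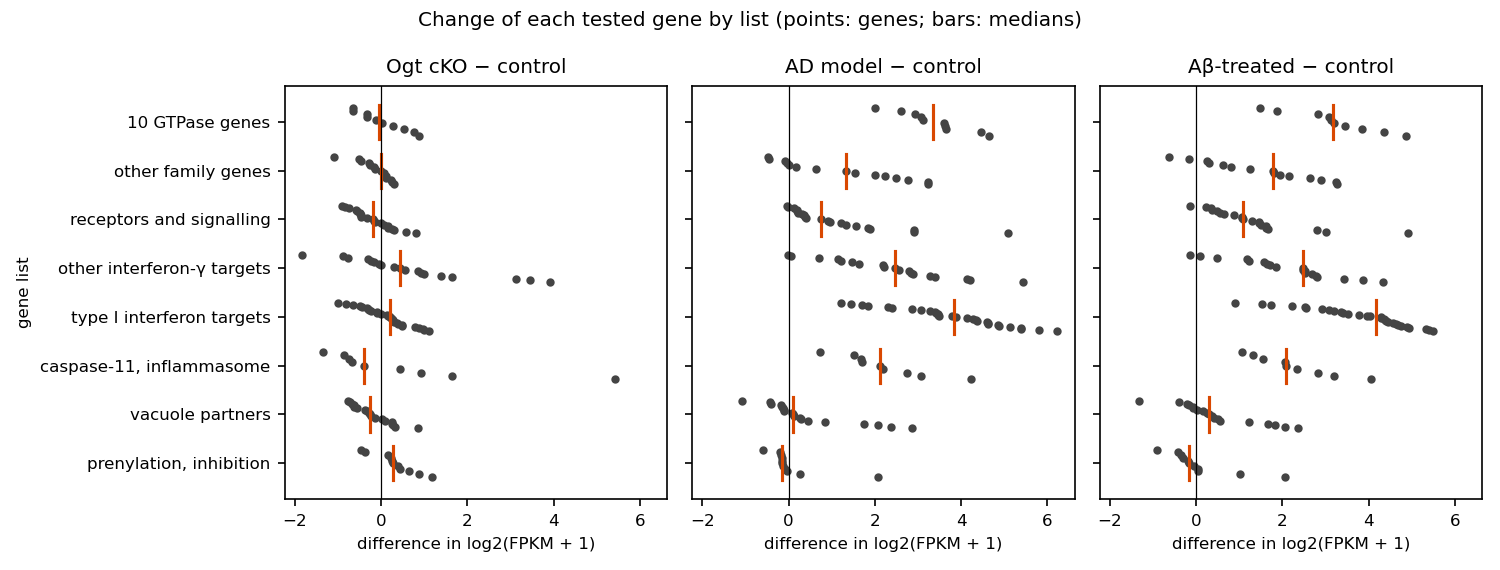
Changes on the log2(FPKM + 1) scale (horizontal axis) of the tested genes of the members and the related gene lists in the 3 comparisons, with 1 point a gene and a bar at each list's median. The members, the type I interferon list and the interferon-gamma list lie mostly above 2 in AD and under Aβ, with medians from 2.47 to 4.16. In the Ogt knockout the medians of these 3 lists run from -0.05 to 0.44, and the prenylation and inhibition list has medians between -0.16 and 0.27 in all 3 comparisons.

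Genes that act with GBPs and IRGs moved unevenly. Of 19 partners on vacuoles (galectins, ubiquitin ligases, autophagy proteins), 5 were called higher and 1 lower in AD, 7 higher and 1 lower under Aβ, and 0 higher and 3 lower (Atg7, Gabarapl1 and Traf6) in the Ogt knockout. Over all genes tested, 17.1% were called in either direction in AD, 35.9% under Aβ and 42.3% in the knockout. The ubiquitin and ISG15 conjugating enzyme Ube2l6 rose from 12.7 to 69.7 FPKM in AD and from 14.9 to 65.2 under Aβ. The galectins Lgals9 (17.5 to 126) and Lgals3 (48.9 to 211), which bind sugars exposed on broken vacuoles, and the ubiquitin ligase Trim21 (2.53 to 11.1) also rose in AD, as did Lgals8 (14.7 to 26.9). The gene lower in AD and under Aβ was Map1lc3a, which encodes an LC3 protein of autophagosomes (106 against 51.9 and 122 against 47.7 FPKM). All 9 tested genes of the caspase-11 and inflammasome list, which GBPs help to activate, were called higher in AD and 8 under Aβ, with 2 higher (Nlrp3 and Il1b) and 3 lower (Casp1, Pycard and Naip5) in the Ogt knockout. Casp4, which encodes mouse caspase-11, rose from 0.684 to 10.3 FPKM in AD (adjusted p = 1.0e-05) and from 0.196 to 10.1 under Aβ (5.2e-06). The sensor gene Aim2 rose from 1.08 to 5.80, the sensor gene Naip2 from 1.38 to 9.72 and the cytokine gene Il1b from 0.574 to 33.6 FPKM in AD. Il1b was also higher in the Ogt knockout (0.313 against 54.9 FPKM, adjusted p = 3.5e-04).

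Most of the enzymes and binding proteins that anchor GBPs or hold them inactive were not called in AD or under Aβ. Of 11, 1 was called higher and 0 lower in AD, and 2 higher and 1 lower under Aβ. In the Ogt knockout 4 were called higher (Arhgdia, Pim1, Ywhaz and Ywhag) and 1 lower (Pggt1b). Of all genes tested, 17.1% were called in AD, 35.9% under Aβ and 42.3% in the knockout. The one called in AD was Pim1, a kinase known to keep a human GBP in check, at 4.18 and 20.7 FPKM (2.07, adjusted p = 2.6e-04). Fnta, a subunit shared by both prenyl transferases, was lower under Aβ (36.3 against 19.0 FPKM, adjusted p = 0.0078) and had 37.2 and 24.3 in the AD groups (adjusted p = 0.075). Pggt1b, the subunit that is specific to geranylgeranylation, was higher under Aβ (2.14 against 5.37 FPKM, adjusted p = 5.75e-04), as was Pim1. Ywhae (248 and 215 FPKM) and Ywhaz (99.8 and 88.2), which encode 14-3-3 proteins, were not called in AD.

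The effects of AD and Aβ on the members were set against that of the Ogt knockout in the same fit. The AD effect exceeded the knockout effect for 10 of 10 members, where 11.9% of all genes were called so, and the Aβ effect for 9 of 10, where 26.6% were. The exception was Irgm1, with a difference of 0.72 (adjusted p = 0.13).

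Genes with a name of Gm and digits, or ending in Rik with or without digits, were left out of the next ranking. The family genes Gm12250 and Gm4951 were thus not candidates. Among the rest, the 6 genes outside the 10 whose centred group means on the log2(FPKM + 1) scale lay nearest to the mean pattern of the members over the 6 groups were Slfn8, Phf11b, Mx2, Ifih1, Rnf213 and Oas1b, with root mean square distances of 0.18, 0.19, 0.20, 0.21, 0.22 and 0.22. The members' own distances ran from 0.25 (Igtp and Gbp7) to 0.70 (Irgm1). Mx2 and Oas1b are antiviral genes, Ifih1 encodes the RNA sensor MDA5, and Slfn8, Phf11b and Rnf213 are also known as interferon-induced. Their changes ran from 2.86 to 3.68 in AD and from 2.61 to 3.40 under Aβ, and none was called in the Ogt knockout. The 6 were picked by these same group means, so such changes follow from the rule that picked them.

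Markers of other cells moved with some of these results, and their part in them was not tested. Microglia markers, 19 genes of which Siglech was at 0 in all libraries, summed to 733 and 794 FPKM in the AD controls, 1583 and 2321 in the AD model, 877 and 1262 in the Aβ controls and 2162 and 1704 in the Aβ-treated cells. Of 17 tested, 9 were called higher and 0 lower in AD, 6 higher and 2 lower under Aβ, and 0 higher and 9 lower in the Ogt knockout. Beside this and the marker counts below, 17.1% of all genes tested were called in AD, 35.9% under Aβ and 42.3% in the knockout. Macrophage and monocyte markers (10 genes, none at 0 throughout) summed to 595 and 1151 in the AD controls, 2719 and 5119 in the AD model, 1705 and 3020 in the Aβ controls and 5582 and 4090 in the Aβ-treated cells, with 5 of 6 tested called higher in AD and 5 of 6 under Aβ. The AD model library with the higher member sum (531 FPKM) also had the higher macrophage sum. In the knockout controls the microglia sum was the highest of all groups (3670 and 3302 FPKM) and the macrophage sum was 6418 and 4783, while the members summed to 56.0 and 42.4 FPKM there. In the Ogt knockout the microglia sum was 851 and 664 and the macrophage sum 3811 and 2832 FPKM, with 3 of 6 macrophage markers called lower. Astrocyte markers summed to 570 to 788 FPKM in the AD controls and 390 to 426 in the model (0 of 14 higher, 5 lower), to 202 to 208 in the Aβ controls and 199.8 to 352 after treatment (3 higher, 2 lower), and to 769 to 928 in the knockout controls and 186 to 200 in the knockout (10 lower).

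T and NK cells, the main makers of interferon-gamma, left few reads: 1 of their 16 markers passed the filter and was not called in any comparison, 5 (Cd3g, Cd2, Cd8b1, Ncr1 and Gzma) were at 0 in all libraries, and the sum was 0.308 to 9.25 FPKM. Of 2 dendritic cell markers tested, 0 were called in AD, 1 was called higher under Aβ and 0 in the Ogt knockout. Endothelial markers were higher in 9 and lower in 1 of 14 in the Ogt knockout, uncalled in AD and higher in 10 under Aβ. Pericyte and smooth muscle markers were lower in 6 of 8 in AD and 7 under Aβ and higher in 5 in the knockout. Fibroblast markers were lower in 5 of 9 in AD, 1 higher and 4 lower under Aβ, and 1 higher and 1 lower in the knockout. Oligodendrocyte markers were higher in 7 and lower in 2 of 11 in AD, higher in 9 under Aβ and lower in 7 in the knockout, and neuron markers lower in 1 of 4 in AD, 1 higher and 2 lower under Aβ, and 1 higher and 1 lower in the knockout.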

How the data were processed

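The authors deposited 1 table of FPKM per gene for 12 RNA-seq libraries of total RNA (TRIzol), with gene name, position and gene length in bases. The submitters' processing notes name the build mm10, while aligner, counter, annotation and scaling are not stated there or in the labels. With the deposited lengths, 100% of the FPKM values came out as whole reads within 0.1 of a read. Table lengths equal the exon unions of GENCODE vM21, which was used to find exon bases and 50-base stretches shared between genes.

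The main test was limma 3.58.1 (R 4.3.3) on log2(FPKM + 1), with 1 mean per group over all 12 libraries, an intensity trend and two-sided moderated tests with 6 residual and 2.92 prior degrees of freedom. Benjamini-Hochberg adjustment ran over the 14014 genes that reached 1 FPKM in 2 or more libraries, and calls have an adjusted p under 0.05. A fold on this scale understates the change of low genes, so ratios of mean FPKM are given too. Differences between effects were contrasts in the same fit. The fit was tested on simulated data. With each experiment simulated at its own spread, the shared spread gave more false calls in AD than in the other comparisons, so the fit on the AD libraries alone stands beside the AD result. Python 3.11.15 with pandas 2.3.3 made the descriptions and matplotlib 3.10.9 the figures. Promoters are those of RefSeq for GRCm38.p6, matched by symbol for 7 of 10 members.

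Besides the members, 18 gene lists were used, for related GTPases, interferon signalling and targets, GBP partners and cell types. The members and lists were chosen with earlier results of these data known. All 10 members are named, with the other family genes of at least 1 FPKM in a group mean and up to 4 genes of each other list (the smallest p in AD, plus named ligands, receptors and signalling genes, of which 1 is not reported here). The named genes of like pattern are the 6 nearest by root mean square distance, leaving out names of Gm and digits or ending in Rik. Alternatives were pseudocounts, filters, scalings, limma voom on recovered reads, a robust fit, a replicate block, each comparison's own libraries, and leaving out each library.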

Additional observations from a re-analysis of the deposited data

Results flagged for a closer look

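With 2 libraries a group no single library can be tested as an outlier. The results here were picked because the effects of 2 experiments on the same gene differed in a test of the difference itself, by limma over all genes. The AD effect minus the Ogt knockout effect, on the log2(FPKM + 1) scale, was 2.57 for Gbp2, 4.43 for Gbp3, 2.75 for Gbp5, 2.66 for Gbp6, 3.40 for Gbp7 and 3.73 for Gbp9. Among the IRGs it was 5.30 for Iigp1, 1.25 for Irgm1, 3.26 for Irgm2 and 3.99 for Igtp. The Aβ effect minus the knockout effect was 2.59 for Gbp2, 4.85 for Gbp3, 1.96 for Gbp5, 1.61 for Gbp6, 3.53 for Gbp7, 3.58 for Gbp9, 5.01 for Iigp1, 3.74 for Irgm2 and 4.17 for Igtp. Both differences use the same knockout libraries. The experiments also differ in age and genotype, which cannot be told apart from the treatments in these differences.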

How the results depend on the processing

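All 10 members stayed higher in AD and under Aβ in every alternative that tested them, and no member's called change reversed. The filter of 5 FPKM left Gbp6 untested. Calls were lost in AD with its own 4 libraries alone, where 6 members and 278 genes were called, against 10 and 2392. Members called in the Ogt knockout numbered 2, against 0 with no filter on low values, 1 after quantile normalization and 4 with its own libraries alone. Leaving out 1 library gave 0 to 3 members called in the knockout, 10 to 10 in AD and under Aβ, 0 to 2 for AD minus Aβ, 8 to 10 for AD minus knockout and 7 to 9 for Aβ minus knockout. All genes called then ranged from 1857 to 6801 (main 5934) in the knockout, 1872 to 2421 in AD and 2674 to 5856 (main 5025) under Aβ. The lowest knockout count came without the second control and the lowest Aβ count without the first control. Where 1 library was left out, the lone library of its group was assumed to vary like the other groups. No filter on low values left 8 members called for AD minus knockout and 7 for Aβ minus knockout. On recovered reads limma voom called 5972, 2379 and 4948 genes in the knockout, AD and Aβ comparisons. Genes called higher were 53.3% of calls in the knockout, 57.4% in AD and 58.0% under Aβ, against 47.9%, 49.3% and 47.4% after quantile normalization, 35.5% in the knockout after rescaling to total reads and 86.0% in AD with its own libraries.

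Replicate numbers carry no stated pairing. The deviations of same-numbered libraries correlated at 0.03 in the knockout, 0.55 in AD and -0.17 under Aβ. With a replicate block the calls were 6789, 3058 and 6098 genes and 2, 10 and 10 members, and 0, 10 and 9 members for the differences AD minus Aβ, AD minus knockout and Aβ minus knockout. A block with crossed numbers, chosen after seeing the data, called 7358, 3549 and 6708 genes. The cause of these shifts was not tested. Precision is limited by 2 libraries a group, and for Iigp1 and Gbp6 by the 2 and 4 reads of the Aβ controls.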
